A study of Mus musculus with 24 samples.

Results

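The G1 cyclins and cyclin-dependent kinases (CDKs) are described here in mouse pancreatic organoids, as messenger RNA bound by polysomes and as total messenger RNA. The 10 members were taken by gene symbol: Ccnd1, Ccnd2 and Ccnd3 (the D-type cyclins), Ccne1 and Ccne2 (the E-type cyclins), Cdk4, Cdk6 and Cdk2 (their kinases), Cdkn1b (the inhibitor p27Kip1) and Rb1 (the retinoblastoma protein). Of these, 8 have an entry of their own among the 19895 entries of the gene table, and all 8 are among the 12209 entries with a count above 0 in every library, the only filter on low values. Ccnd3 and Ccne2 are listed only in shared entries, Bysl+Ccnd3 and Ccne2+Ints8. Bysl codes for a ribosome biogenesis factor and Ints8 for an Integrator subunit, and the reads of a shared entry cannot be assigned to either of its genes. Counts of members therefore run over 8 genes, and the shared entries are given beside them.

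D-type cyclins are made in response to growth factor signals and bind CDK4 or CDK6. These kinases begin the phosphorylation of RB, which in its unphosphorylated form holds back the E2F transcription factors. Released E2F raises the transcription of E-type cyclins and of DNA replication genes, and cyclin E with CDK2 completes RB phosphorylation, while p27Kip1 inhibits CDK2 complexes. Cyclin D1 is widely used as an example of an mRNA sensitive to the cap-binding complex eIF4F, whose helicase subunit is eIF4A.

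The study asked how inhibition of eIF4A changes which mRNAs are translated in tumour and in normal organoids. Normal (N) organoids were grown from ductal isolates of wild-type C57Bl/6J mice. KP organoids were grown from pancreatic ductal adenocarcinomas of Pdx1-Cre mice carrying conditional tumour alleles, among them Trp53 LSL-R172H, in which Cre is made under the Pdx1 promoter, active in the pancreatic epithelium, so that KP differs from N in genotype and in tissue of origin together. Both types received either DMSO vehicle or 10 nM CR-31 (CR1-31-b), a rocaglate that inhibits eIF4A, for 1 h, in medium without EGF and N-acetylcysteine, and all were exposed to cycloheximide before lysis. There are 4 groups of 3 replicates. From every one of the 12 lysates, polysome-bound mRNA (3 or more ribosomes) and total mRNA were sequenced separately, which makes 24 libraries. The labels do not say whether replicates came from separate animals, so p-values measure the spread between these samples only. Expression of Y-linked genes, given below, differed between replicates within each organoid type. The age of the mice was not given in the sources used here.

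Libraries held 47308461 to 267463046 counts over all entries. They came from 4 lanes or runs, none of which holds both organoid types, so lane and organoid type cannot be told apart in any comparison of KP with N. Vehicle and CR-31 libraries of replicate 2 lay in different lanes or runs in both organoid types. Those of replicate 1 shared one within each type, as did those of replicate 3. The 10 ductal markers were each present at a median of 1 CPM (counts scaled to a common library size) or more in both types, with Krt8 at 1462 to 4420 CPM. The 7 fibroblast, 4 endothelial and 5 endocrine markers each stayed under 1 CPM in every library, with Ins1, Ins2 and Gcg at 0. Of the acinar markers, Cela1 was at 2.97 to 4.73 CPM and Cpa1 at 0, and of the 5 leukocyte markers Cd68 was at 1.69 to 25.7 CPM, Itgam at 0 to 6.81 CPM and Ptprc at 0 to 2.82 CPM, with Adgre1 and Cd3e at most at 0.0705 CPM.

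The 2 lysates of N replicate 3 stood apart in their fraction labels. Over 8715 genes with a mean log2 CPM above 3, the polysome-minus-total profile of N vehicle replicate 3 correlated at -0.59 with that of N CR-31 replicate 3, whereas the other pairs of same-numbered lysates correlated at 0.17 to 0.88. Centred on the mean of the N libraries, the library labelled N vehicle replicate 3 polysome correlated at 0.80 with the one labelled N CR-31 replicate 3 total, and at 0.20 with the one labelled N CR-31 replicate 3 polysome. Which of these libraries is at odds with its label cannot be told. Labels were kept as given, and members called between KP and N are also given without both lysates of N replicate 3. Summed CPM of 4 Y-linked genes was 70.25 to 159.5 in N replicate 3 and at most 0.161 in the other N replicates. It was at least 23.75 in KP replicates 1 and 2 and at most 0.153 in KP replicate 3. Leaving out N replicate 3 thus sets N without Y-linked expression against KP that mostly has it.

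CPM values below are scaled to the effective library size and compare one gene between libraries. For levels of different genes the deposited RPKM values were used, which are divided by transcript length. In the polysome libraries of vehicle N organoids, Ccnd1 had the highest mean at 245.4 ± 110.7 RPKM (SD, n = 3), followed by Cdk4 at 239.9 ± 41.9 RPKM (SD, n = 3) and Ccnd2 at 88.7 ± 68.7 RPKM (SD, n = 3). The other 5 members lay far lower on this scale, from Cdkn1b at 21.6 RPKM and Cdk6 at 19.5 RPKM down to Cdk2 at 7.32 RPKM, Rb1 at 4.997 RPKM and Ccne1 at 4.95 RPKM. The ranges of replicates overlapped between Ccnd1 and Cdk4, between Cdkn1b and Cdk6, between Cdk6 and Cdk2 and between Rb1 and Ccne1, so those neighbours are not separated.

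In the polysome libraries of vehicle KP organoids the same 3 genes led, with Ccnd1 at 451.4 ± 162.0 RPKM (SD, n = 3), Cdk4 at 313.0 RPKM and Ccnd2 at 199.8 ± 7.96 RPKM (SD, n = 3). Ccne1 came next here, at 15.2 RPKM, and its replicates overlapped those of Cdk2 at 15.1 RPKM, which in turn overlapped Cdkn1b at 14.5 RPKM. Ccnd1 and Cdk4 overlapped here too. Cdk6 followed at 10.7 RPKM and Rb1 at 4.83 RPKM. The order was similar with CR-31 and in total mRNA, with Ccnd1, Cdk4 and Ccnd2 the 3 highest members in all 8 combinations of organoid, treatment and fraction.

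**Figure D1:**
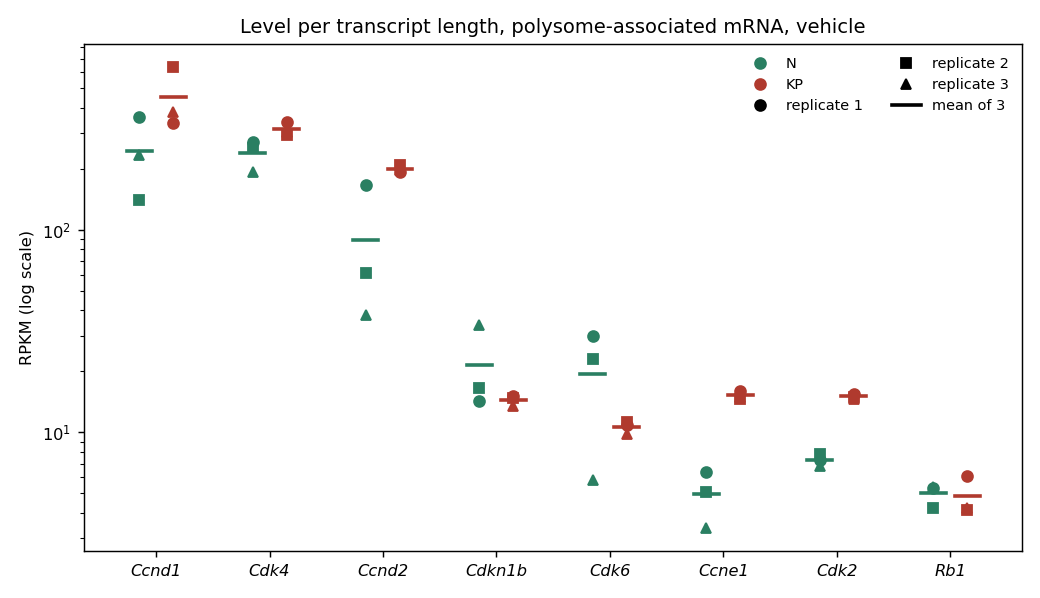
RPKM of each member in the vehicle polysome libraries on a log axis, with 1 point per replicate for N and KP and a bar at the mean. Ccnd1, Cdk4 and Ccnd2 lie above the other 5 members in both organoid types, and Ccne1 moves from 4.95 RPKM in N to 15.2 RPKM in KP.

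KP was first compared with N in vehicle libraries, the comparison of tumour with normal organoids. In polysome-associated mRNA, Ccnd1, Ccnd2, Ccne1, Cdk2 and Cdk4 were higher in KP by 1.41-fold to 3.34-fold, and Cdk6 was lower. In total mRNA Ccnd1, Ccnd2, Ccne1 and Cdk2 were higher. A gene was called at an adjusted p under 0.25 in edgeR's quasi-likelihood test with Benjamini-Hochberg adjustment over all 12209 entries, the source of every adjusted p below unless another tool is named. By this rule 6 of 8 members were called in polysome-associated mRNA, where 43.8% of all entries were called (19.7% higher and 24.1% lower). In total mRNA 4 of 8 members were called, against 28.6% of all entries (13.3% higher and 15.3% lower). The median log2 fold change of the 8 members was 0.74 in polysome-associated mRNA, beside -0.07 over all entries, and 0.75 in total mRNA, beside -0.03. At an adjusted p under 0.05, which 15.2% of entries met in polysome-associated mRNA and 9.11% in total mRNA, 2 members remained in each, Ccne1 and Cdk2.

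Ccnd1 codes for cyclin D1. In the polysome libraries of vehicle N organoids it was at 1278, 484.5 and 928.3 CPM in replicates 1 to 3, and in those of KP at 1278, 2568 and 1495 CPM. N replicate 1 and KP replicate 1 were at the same level, so the groups overlapped. The log2 fold change was 0.99 (SE 0.45, adjusted p = 0.152), and the call was lost without KP vehicle replicate 2 or without N vehicle replicate 2 (0.63 to 1.33 over all replicates left out in turn, adjusted p up to 0.432). In total mRNA the values were 1228, 465.2 and 791.8 CPM in N and 1445, 2816 and 1374 CPM in KP, without overlap. There the log2 fold change was 1.18 (SE 0.45, adjusted p = 0.13), and the call was lost without both lysates of N replicate 3 (1.15, adjusted p = 0.297), as it was without N vehicle replicate 2, N vehicle replicate 3 or KP vehicle replicate 2.

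Ccnd2 codes for cyclin D2. Its polysome values were 898.6, 320.6 and 229.2 CPM in N and 1123, 1281 and 1168 CPM in KP. The 3 KP libraries lay close together and above all 3 of N, among which replicate 1 was the highest. The log2 fold change was 1.30 (SE 0.51, adjusted p = 0.0971), and 0.99 without N replicate 3 (adjusted p = 0.159), with the call lost when N vehicle replicate 2 was left out (adjusted p = 0.257). Total mRNA gave 713.2, 210.7 and 265.8 CPM in N and 1203, 1314 and 1108 CPM in KP, again without overlap, with a log2 fold change of 1.61 (SE 0.50, adjusted p = 0.0702; 1.39 without N replicate 3, adjusted p = 0.196).

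Ccnd3 was measured only together with Bysl. The Bysl+Ccnd3 entry was at 126.0, 102.3 and 99.4 CPM in the polysome libraries of N and at 233.3, 237.1 and 202.7 CPM in those of KP, a log2 fold change of 1.04 (SE 0.20, adjusted p = 0.00921; 1.00 without N replicate 3). In total mRNA it was at 105.4 to 125.1 CPM in N and at 136.7 to 182.0 CPM in KP, a log2 fold change of 0.50 (adjusted p = 0.191) that was not called without both lysates of N replicate 3 (0.49, adjusted p = 0.331), nor without N vehicle replicate 2, N vehicle replicate 3, KP vehicle replicate 1 or KP vehicle replicate 2.

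Cdk4 and Cdk6 code for the kinases that D-type cyclins activate. Cdk4 polysome values were 341.9, 311.4 and 270.1 CPM in N and 460.2, 422.6 and 419.8 CPM in KP, without overlap. The log2 fold change was 0.50 (SE 0.18, adjusted p = 0.0772; 0.44 without N replicate 3, adjusted p = 0.0536). Total Cdk4 mRNA was at 338.1 to 377.9 CPM in N and at 342.1 to 376.4 CPM in KP, so the ranges coincided, with a log2 fold change of 0.01 (adjusted p = 0.987).

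Cdk6 was the member that was lower in KP. Its polysome values were 320.8, 240.2 and 69.6 CPM in N and 126.4, 137.4 and 116.5 CPM in KP. Replicates 1 and 2 of N lay above all of KP, and the library labelled N vehicle replicate 3 lay below all of KP. The log2 fold change was -0.73 (SE 0.42, adjusted p = 0.248), at the edge of the threshold and called in only 5 of 20 alternative analyses (-1.16 to -0.29 over all replicates left out in turn), among them the one without N replicate 3, which gave -1.12 (adjusted p = 0.00803). Total Cdk6 mRNA was at 97.0 to 206.4 CPM in N and at 87.5 to 131.8 CPM in KP, with a log2 fold change of -0.34 (adjusted p = 0.69).

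Ccne1 codes for cyclin E1. It was at 11.7, 8.99 and 6.89 CPM in the N polysome libraries and at 31.6, 30.5 and 30.1 CPM in those of KP. In total mRNA it was at 11.2, 9.39 and 10.2 CPM in N and at 26.6, 27.7 and 25.5 CPM in KP. Every KP library lay above 2 times the level of every N library in both fractions. KP exceeded N by 1.74 on the log2 scale in polysome-associated mRNA (3.34-fold, SE 0.23, adjusted p = 0.00168; 1.60 without N replicate 3) and 1.38 in total mRNA (2.59-fold, SE 0.22, adjusted p = 0.00447; 1.36 without N replicate 3). Ccne2, measured only with Ints8, gave 25.6 to 30.8 CPM in N and 21.9 to 33.2 CPM in KP in the polysome libraries, with overlapping ranges and a log2 fold change of 0.01 (adjusted p = 0.98).

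Cdk2, the kinase partner of the E-type cyclins, had polysome values of 15.7, 16.6 and 16.8 CPM in N and 36.1, 37.2 and 34.97 CPM in KP. Total values were 21.4, 24.2 and 19.6 CPM in N and 43.7, 39.5 and 45.7 CPM in KP. Within each group the 3 libraries lay close together and the groups did not overlap. KP exceeded N by 1.14 on the log2 scale in polysome-associated mRNA (2.21-fold, SE 0.18, adjusted p = 0.00387; 1.19 without N replicate 3) and 0.98 in total mRNA (1.98-fold, SE 0.18, adjusted p = 0.00888; 0.91 without N replicate 3). Ccne1 and Cdk2 were called in all 20 alternative analyses of both fractions.

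Cdkn1b, whose product p27Kip1 inhibits cyclin E-CDK2, was at 32.2, 36.1 and 84.7 CPM in the N polysome libraries and at 36.6, 37.6 and 33.6 CPM in those of KP. Only the library labelled N vehicle replicate 3 was apart from the others. The log2 fold change was -0.50 (SE 0.30, adjusted p = 0.27) and turned to 0.10 without N replicate 3 (adjusted p = 0.623). Rb1 was at 23.06, 17.9 and 25.97 CPM in N and at 28.3, 20.4 and 20.1 CPM in KP in the polysome libraries, with overlapping ranges and a log2 fold change of 0.04 (adjusted p = 0.931). In total mRNA, Cdkn1b had a log2 fold change of -0.17 (adjusted p = 0.685) and Rb1 of 0.51 (adjusted p = 0.41).

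Counted by library ranges, 4 of 8 members had all 3 KP polysome libraries above all 3 of N (Ccnd2, Ccne1, Cdk2 and Cdk4), where 33.7% of all entries were apart in either direction. In total mRNA these were Ccnd1, Ccnd2, Ccne1 and Cdk2, with 32.3% of all entries apart. Without N replicate 3 the 6 members called in polysome-associated mRNA were the same 6 (52.3% of 12372 entries called), and in total mRNA Ccnd2, Ccne1 and Cdk2 were called (19.1% of entries). RNA per cell and the number of cells behind a lysate cannot be told apart in these bulk samples.

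**Figure D2:**
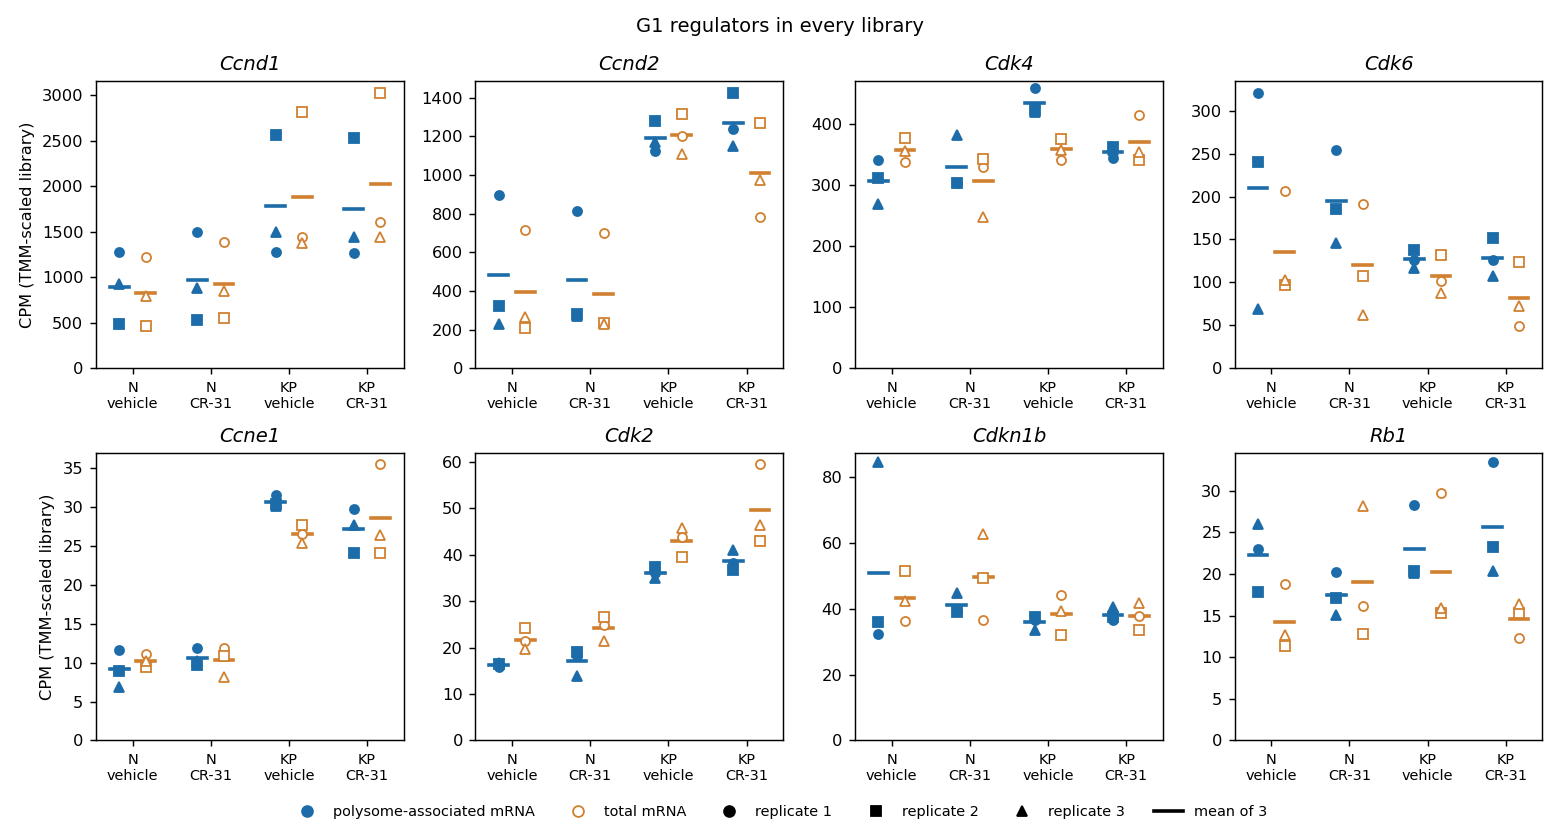
CPM of the 8 members with an entry of their own in all 24 libraries, by organoid and treatment, with filled points for polysome-associated mRNA, open points for total mRNA and a point shape per replicate. Ccne1 and Cdk2 in KP lie above every N library, whereas Cdk6 and Cdkn1b overlap between the organoid types in each treatment and fraction.

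KP was also compared with N in the CR-31 libraries, which share their source with the vehicle libraries of the same replicate number and so are no independent repeat. In polysome-associated mRNA 4 of 8 members were called, all higher in KP (Ccnd2, Ccne1, Cdk2 and Rb1), where 24.6% of all entries were called (11.1% higher and 13.5% lower, and 5.86% at an adjusted p under 0.05). In total mRNA 4 were called, again higher (Ccnd1, Ccnd2, Ccne1 and Cdk2), where 39.5% of all entries were called (17.6% higher and 21.9% lower, and 10.1% at an adjusted p under 0.05). Ccne1 had a log2 fold change of 1.35 in polysome-associated mRNA (adjusted p = 0.00886) and 1.48 in total mRNA (adjusted p = 0.00431), and 1.34 in both without N replicate 3. For Cdk2 the values were 1.18 (adjusted p = 0.00591) and 1.03 (adjusted p = 0.00737), and without N replicate 3 they were 1.06 and 0.95. Both were called in all 20 alternative analyses of each fraction.

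Ccnd2 gave 1.48 in polysome-associated mRNA (adjusted p = 0.106) and 1.38 in total mRNA (adjusted p = 0.0962), the first of which was lost without KP CR-31 replicate 1 or without N CR-31 replicate 2 (adjusted p up to 0.279). Without N replicate 3 both stayed called, at 1.23 (adjusted p = 0.145) and 1.12 (adjusted p = 0.249). Ccnd1 gave 0.85 in polysome-associated mRNA, which was not called (adjusted p = 0.295), and 1.12 in total mRNA (adjusted p = 0.127), which was not called without N replicate 3 (1.06, adjusted p = 0.285), without N CR-31 replicate 2 or without KP CR-31 replicate 2 (adjusted p up to 0.324). Rb1 in polysome-associated mRNA was at 20.3, 17.1 and 15.1 CPM in N and at 33.4, 23.2 and 20.4 CPM in KP, a log2 fold change of 0.55 (SE 0.25, adjusted p = 0.217). Its call was lost in 6 of 20 alternative analyses, 1 of them without both lysates of N replicate 3 (0.47, adjusted p = 0.287) and 1 each without N CR-31 replicate 2, N CR-31 replicate 3, KP CR-31 replicate 1, KP CR-31 replicate 2 or KP vehicle replicate 3 (0.32 to 0.74 over all replicates left out in turn).

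Cdk4, which was higher in KP polysomes with vehicle, had a log2 fold change of 0.10 in the CR-31 polysome libraries (adjusted p = 0.776) and 0.27 in total mRNA (adjusted p = 0.291). Bysl+Ccnd3 gave 0.36 (adjusted p = 0.325) and 0.76 (adjusted p = 0.0505), and without N replicate 3 both were called, at 0.50 (adjusted p = 0.134) and 0.67 (adjusted p = 0.165). Cdk6 was at -0.61 (adjusted p = 0.435) in polysome-associated mRNA, and at -0.76 (adjusted p = 0.0576) without N replicate 3. In each fraction 4 members had groups that did not overlap, with 28.6% of all entries apart in the polysome and 29.4% in the total libraries. Without N replicate 3, 4 members were called in polysome-associated mRNA (Ccnd2, Ccne1, Cdk2 and Cdk6, with 34.4% of entries) and 3 in total mRNA (Ccnd2, Ccne1 and Cdk2, with 26.1% of entries).

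**Figure D3:**
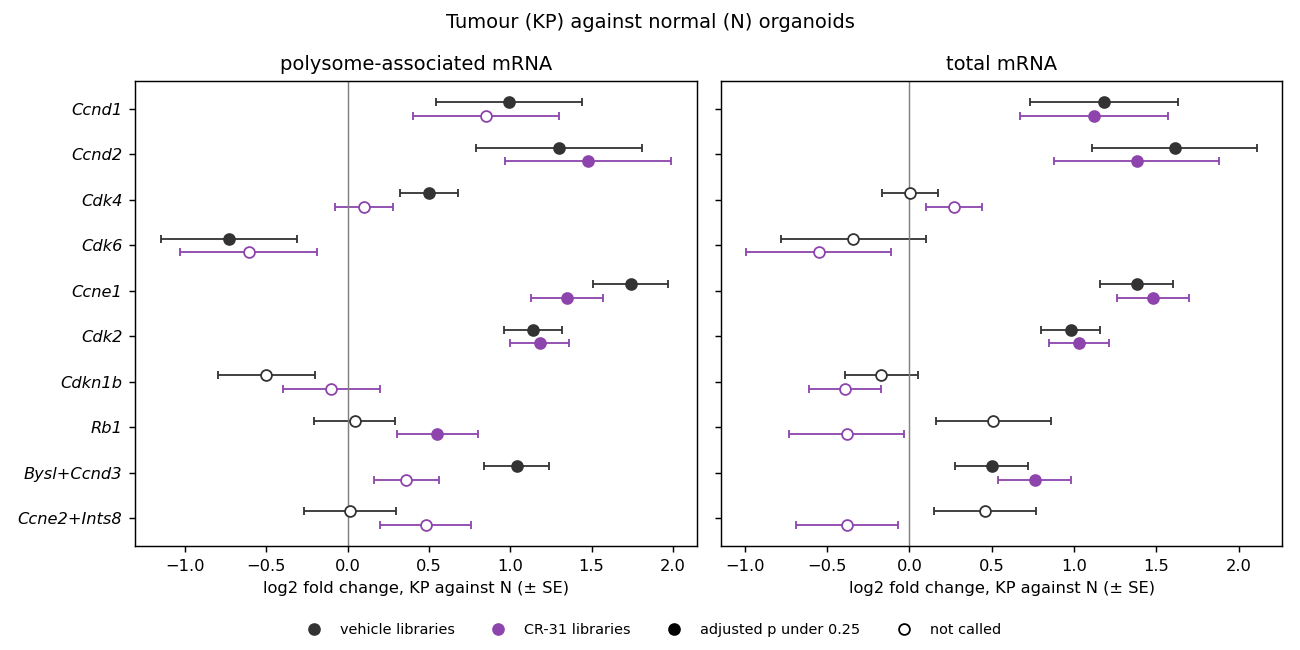
Log2 fold change of KP against N with its SE for the 8 members and the shared entries, in polysome-associated and total mRNA, for vehicle and CR-31 libraries, with filled points at an adjusted p under 0.25. Ccne1 and Cdk2 lie at 0.98 to 1.74 in all 4 comparisons, and Cdk4 is called only in the vehicle polysome libraries.

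Translational efficiency, the change in polysome-associated mRNA beyond that in total mRNA, was tested within one model of both fractions. With vehicle, 0 of 8 members and 0% of all entries were called between KP and N, with 1414 entries at an unadjusted p under 0.05, and DESeq2 called 364 entries. The lowest adjusted p among the members was 0.436, for Cdk4, with an efficiency 0.50 higher in KP on the log2 scale (SE 0.24). Its log2 ratio of polysome to total CPM was 0.02, -0.28 and -0.40 in N and 0.43, 0.17 and 0.23 in KP, so the groups did not overlap. Ccne1 followed with 0.39 (SE 0.22, adjusted p = 0.462), and the shared entry Bysl+Ccnd3 had 0.55 (SE 0.24, adjusted p = 0.424).

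Without the 2 lysates of N replicate 3, 35.3% of entries were called in vehicle efficiency, and 3 members with them. Ccnd2 went from -0.26 to -0.45 (adjusted p = 0.14) and Cdk6 from -0.21 to -0.67 (adjusted p = 0.171), while Cdk4 at 0.44 (adjusted p = 0.144) and Bysl+Ccnd3 at 0.52 (adjusted p = 0.142) stayed near their values with all libraries. Cdk4 and Bysl+Ccnd3 were also called with all libraries when efficiency was fitted as a regression on total mRNA, which called 1320 of 12209 entries. In the CR-31 libraries 0 of 8 members and 0% of all entries were called, with 581 entries at an unadjusted p under 0.05 and 0 called by DESeq2.

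CR-31 was then compared with vehicle within each organoid type, the comparison of eIF4A inhibition. None of the 8 members passed the test in KP or in N, in polysome-associated mRNA, total mRNA or translational efficiency, and 0% of all entries did so in any of these 6 comparisons. In KP, 423 entries in polysome-associated mRNA, 98 in total mRNA and 672 in efficiency had an unadjusted p under 0.05, and in N these numbers were 51, 348 and 357. DESeq2 called 8 entries in KP total mRNA, 15 in N total mRNA and 0 in the other 4 comparisons. Fitted log2 fold changes of the members in polysome-associated mRNA ran from -0.29 to 0.16 in KP and from -0.35 to 0.21 in N.

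Cyclin D1 mRNA on polysomes was near its vehicle level in every KP replicate. Ccnd1 was at 1278, 2568 and 1495 CPM with vehicle and at 1268, 2534 and 1449 CPM with CR-31, differences of -0.01, -0.02 and -0.04 on the log2 scale within replicate numbers. In N the same differences were 0.23, 0.13 and -0.07. The fitted change in KP was -0.02, and 2 SE to each side of it reached from -0.92 to 0.87. With the replicate number as a block it was -0.02 with an SE of 0.13 (adjusted p = 0.934).

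Cdk4 polysome values in KP were 460.2, 422.6 and 419.8 CPM with vehicle and 344.5, 362.4 and 358.2 CPM with CR-31. All 3 CR-31 libraries lay below all 3 of vehicle, whereas total Cdk4 mRNA was at 342.1 to 376.4 CPM and 341.9 to 415.3 CPM. In edgeR's test across all entries the log2 fold change was -0.29 (SE 0.18, adjusted p = 1). Ccne1 was also lower in every KP polysome library, at 29.7, 24.1 and 27.8 CPM with CR-31 against 31.6, 30.5 and 30.1 CPM, which are differences of -0.09, -0.34 and -0.12. The shared entry Bysl+Ccnd3 had the most negative value, from 233.3, 237.1 and 202.7 CPM to 158.0, 146.4 and 148.8 CPM in KP, with a log2 fold change of -0.57 (SE 0.20, adjusted p = 1). In total mRNA Bysl+Ccnd3 was at 136.7 to 182.0 CPM with vehicle and at 123.4 to 219.7 CPM with CR-31. Thus 2 of 8 members had KP polysome libraries that did not overlap between treatments, both lower with CR-31, where 20.1% of all entries did not overlap in either direction.

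Same-numbered vehicle and CR-31 libraries deviated together, and a fit with the replicate number as a block was therefore also made. With the replicate block 20.8% of all entries were called in KP polysome-associated mRNA and still 0 of 8 members, with Cdk4 at an adjusted p of 0.339 and Ccne1 at 0.493, while Bysl+Ccnd3 was called (-0.57, SE 0.16, adjusted p = 0.197). Efficiency fitted as a regression on total mRNA with this block called 2226 of 12209 entries in KP and 0 in N. It called 0 of 8 members in KP but did call Bysl+Ccnd3, whose efficiency change was -0.54 (SE 0.24, adjusted p = 0.519) in edgeR's test without the block. With the block and without N replicate 3, 54.6% of entries were called in KP polysome-associated mRNA, and 2 of 8 members, Cdk4 at -0.29 (SE 0.11, adjusted p = 0.0504) and Ccne1 at -0.18 (SE 0.10, adjusted p = 0.162). Bysl+Ccnd3 had an adjusted p of 0.00178 and Ccne2+Ints8, at 0.24, one of 0.0522 in that fit. In N polysome-associated mRNA 14.1% of entries were called in the same fit, and 1 member, Cdk6 at -0.34 (SE 0.13, adjusted p = 0.184). Cdk4 and Ccne1 were called in KP in this fit only, in which the spread is estimated without N replicate 3.

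**Figure D4:**
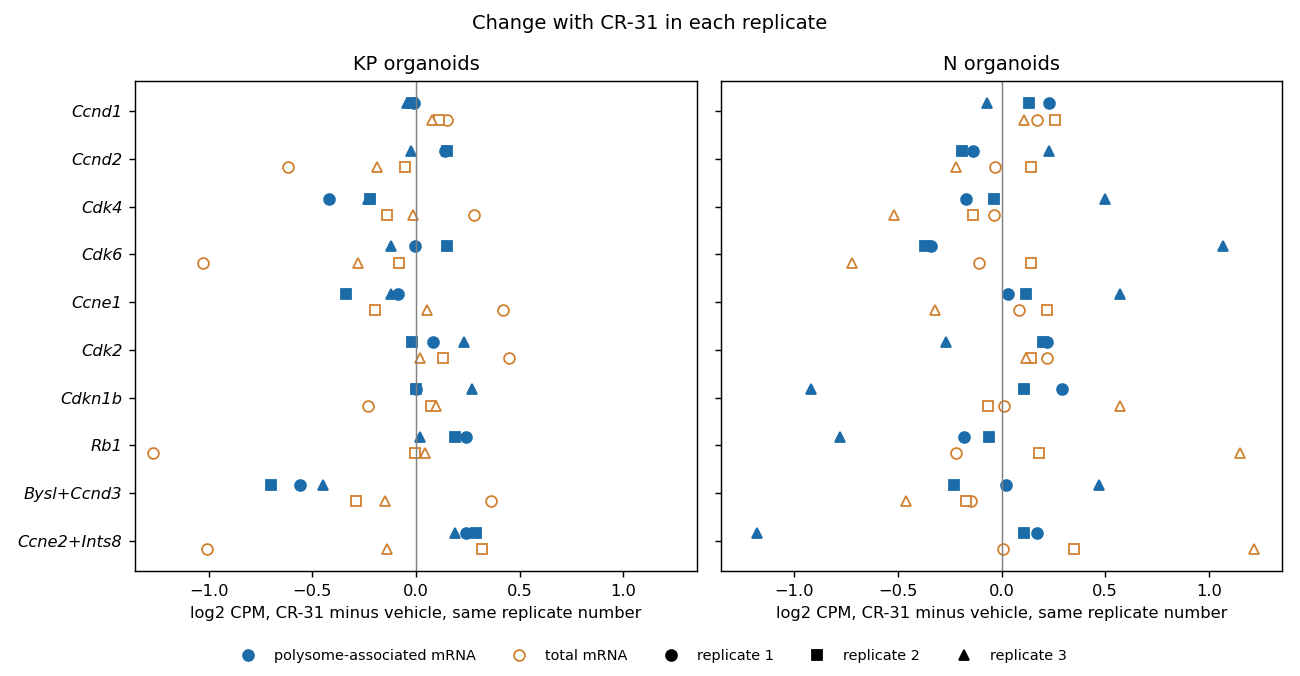
Difference in log2 CPM between CR-31 and vehicle libraries of the same replicate number, for each member and shared entry in N and in KP, with filled points for polysome-associated and open points for total mRNA. Cdk4, Ccne1 and Bysl+Ccnd3 polysome points lie below 0 in all 3 KP replicates, and N replicate 3 lies apart for Cdk6, Cdkn1b and Rb1.

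In N polysome libraries the change farthest from 0 was that of replicate 3 for every member but Ccnd1. In N total libraries the exceptions were Ccnd1 and Cdk2. Cdk6 polysome values differed by -0.34, -0.37 and 1.07 on the log2 scale in replicates 1 to 3, Cdkn1b by 0.29, 0.11 and -0.92, and Ccne2+Ints8 by 0.17, 0.11 and -1.18. Rb1 differed by -0.18, -0.06 and -0.78 in N polysome libraries and by -0.22, 0.18 and 1.15 in N total libraries. In KP, Rb1 differed by 0.24, 0.19 and 0.02 in the polysome libraries and by -1.27, -0.01 and 0.04 in the total libraries, the lowest of which belongs to replicate 1. Cdk6 in KP total mRNA differed by -1.03, -0.08 and -0.28, again lowest in replicate 1.

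The difference between the CR-31 effects of KP and N was tested directly. It passed for 0 of 8 members and 0% of all entries in polysome-associated mRNA, total mRNA and translational efficiency, with 265, 16 and 1330 entries at an unadjusted p under 0.05. DESeq2 called 0, 1 and 0 entries. The efficiency of Rb1 differed by 1.26 between KP and N (SE 0.52, adjusted p = 0.411) and that of Cdk4 by -0.66 (SE 0.33, adjusted p = 0.411), and both were called only when N CR-31 replicate 2 was left out. Leaving out N replicate 3 gave 0.63 (adjusted p = 0.544) and -0.34 (adjusted p = 0.545). The efficiency of the shared entries differed by -0.89 for Bysl+Ccnd3 (SE 0.34) and 1.33 for Ccne2+Ints8 (SE 0.59), each with an adjusted p of 0.411. Both were likewise called only without N CR-31 replicate 2. Without N replicate 3 they were at -0.63 (adjusted p = 0.544) and 0.53 (adjusted p = 0.554). In polysome-associated mRNA Bysl+Ccnd3 differed by -0.68 (SE 0.29, adjusted p = 1). With the replicate block and without N replicate 3, 26.4% of entries were called for this difference in polysome-associated mRNA, and 1 member, Cdk6 at 0.34 (SE 0.16, adjusted p = 0.222), with Bysl+Ccnd3 at -0.48 (adjusted p = 0.121).

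Genes around these regulators were described by 5 lists, in vehicle KP against N. The 12 genes of the RB family and E2F factors had 10 that were tested, and 8 were higher in polysome-associated mRNA and 7 in total mRNA, with none lower and medians of 0.74 and 0.68. Over all entries 19.7% and 13.3% were called higher, with medians of -0.07 and -0.03. E2f2, an activator E2F, was at 1.11, 1.66 and 0.857 CPM in N polysome libraries and at 14.7, 10.4 and 13.5 CPM in KP, a log2 fold change of 3.42 (SE 0.35, adjusted p = 0.000493). E2f1, another activator, rose by 1.11 (adjusted p = 0.0196), and the repressors E2f8 and E2f6 by 1.56 (adjusted p = 0.0193) and 0.85 (adjusted p = 0.0243). Rbl2 and E2f5 had no entry of their own and were not used here.

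The 18 E2F target genes of S phase entry had 15 that were tested, of which 13 were higher in polysome-associated mRNA and all 15 in total mRNA, with medians of 1.12 and 1.25, beside 19.7% and 13.3% of all entries. Cdt1, which loads the replicative helicase onto origins, was at 22.97, 23.2 and 20.6 CPM in N and at 74.9, 62.9 and 79.3 CPM in KP polysome libraries, a log2 fold change of 1.70 (SE 0.25, adjusted p = 0.00309). The helicase subunits Mcm5 and Mcm3 rose by 1.56 (adjusted p = 0.00312) and 1.41 (adjusted p = 0.00793), and the transcription factor Mybl2 by 1.96 (adjusted p = 0.0134). The untested genes of this list had no entry of their own and were not used here.

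Of 8 proliferation markers 6 were higher in polysome-associated and 8 in total mRNA, with medians of 1.59 and 1.63, where 19.7% and 13.3% of all entries were higher. Examples in polysome-associated mRNA were the mitotic kinases Cdk1 at 1.68 (adjusted p = 0.00755), Aurka at 1.76 (adjusted p = 0.00793) and Plk1 at 1.73 (adjusted p = 0.0168), and the mitotic cyclin Ccnb2 at 1.63 (adjusted p = 0.00776). Mki67 at 0.31 (adjusted p = 0.793) and Bub1 at 0.56 (adjusted p = 0.316) were not called there. In total mRNA KP replicate 2 lay below every N library for Mki67 (3.68 CPM) and Bub1 (4.51 CPM). Neither was called in total mRNA without N replicate 3. The markers of cycling cells called in both fractions were higher in KP, as Ccne1 and Cdk2 were. The part of the share of cycling cells in the results for Ccne1 and Cdk2 was not tested.

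None of the other CDK inhibitors was called lower with vehicle. Of 6, 3 were higher in each fraction (19.7% and 13.3% of all entries), all of the INK4 family that binds CDK4 and CDK6. Cdkn2a, the locus of p16INK4a and ARF, was at 80.4, 41.9 and 80.3 CPM in N and at 315.8, 249.3 and 214.5 CPM in KP polysome libraries, a log2 fold change of 1.94 (SE 0.33, adjusted p = 0.00521). Cdkn2d rose by 1.99 (adjusted p = 0.0115) and Cdkn2c by 1.29 (adjusted p = 0.0372), whereas Cdkn1a, Cdkn1c and Cdkn2b were not called. With CR-31, total mRNA of Cdkn1c was called lower in KP, at -0.48 (SE 0.23, adjusted p = 0.191). Of 14 genes of CDK activation and turnover of G1 regulators 12 were tested, and 3 were higher in polysome-associated and 4 in total mRNA, with medians of 0.19 and 0.17. The polysome count is near the share of all entries called higher, 19.7%, and in total mRNA that share was 13.3%. They included Cks1b and Skp2, which act together in the degradation of p27Kip1, at 1.20 (adjusted p = 0.0236) and 1.01 (adjusted p = 0.0525), and the phosphatase Cdc25a at 0.52 (adjusted p = 0.0952). Cdk7 and Fbxw7 had no entry of their own and were not used here.

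Without N replicate 3, a choice added after the data were seen, the polysome counts of the 5 lists were 7, 13, 6, 3 and 5 higher in the order given above, with 1 lower, Uhmk1 of the list of CDK activation and turnover, named here after its value was seen. The total mRNA counts were 6, 13, 6, 3 and 3 higher and none lower. In either direction 52.3% of all entries were called in polysome-associated and 19.1% in total mRNA in this fit. The 18 list genes named above were all called in polysome-associated mRNA in this fit, at 0.49 to 3.25 (adjusted p up to 0.093). For CR-31 against vehicle, in KP and in N, no gene of any list was called in any of the 3 measures, as 0% of all entries were. With the replicate block, also added to the lists after the data were seen, the KP polysome counts in the same order of lists were 1, 4, 3, 0 and 1 higher and 1, 2, 0, 1 and 1 lower, where 20.8% of all entries were called, and no list gene was called in KP total mRNA or in either fraction of N.

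**Figure D5:**
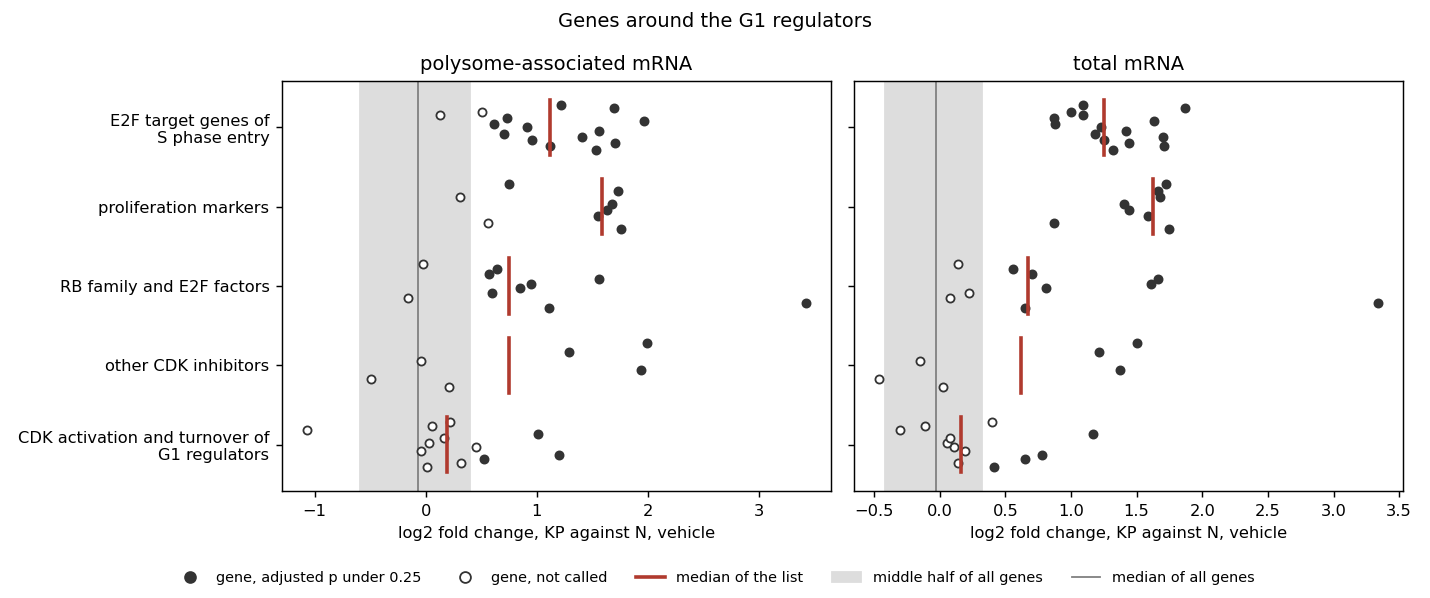
Log2 fold change of KP against N in vehicle libraries for each tested gene of the 5 lists, in polysome-associated and total mRNA, with filled points at an adjusted p under 0.25, the list's median as a bar and the range between the quartiles of all entries shaded. E2F target genes and proliferation markers have medians of 1.12 to 1.63, above the shaded range that ends at 0.40 in polysome-associated and 0.32 in total mRNA.

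The promoters of Ccne1 and Cdk2 are shown because these members differed most firmly between the organoid types. RefSeq promoter sequences of build GRCm38.p6 were matched by symbol for 6 members, Ccnd3 (with 2), Ccne1, Cdk2, Cdk4, Cdk6 and Cdkn1b, and the 250 bases before the start were searched. Ccnd1, Ccnd2, Ccne2 and Rb1 had no match. E2F sites were searched as the letters TTTCGCGC, TTTGGCGC, TTTCCCGC and TTTGCCGC on both strands. Only 1 of 7 member promoters held one, that of Cdk2, beside 1.86% of 32851 promoters in all and 3.31% of 11251 promoters of tested genes. No match says only that these letters are not in the window. The GC content of the member promoters was 59.6% to 76.0%, with a median of 52.4% over all promoters and 59.6% over those of tested genes. The sequences below lie outside annotated exons, on the minus strand, from 250 to 45 bases before the start of Ccne1 (chr7:38107535-38107740) and from 128 to 1 bases before that of Cdk2 (chr10:128705052-128705179). The third is the matched stretch of Cdk2 (chr10:128705174-128705201), with the 8 matched letters in capitals, 140 to 133 bases before the start and within an exon of Pmel on the opposite strand.
Ccne1: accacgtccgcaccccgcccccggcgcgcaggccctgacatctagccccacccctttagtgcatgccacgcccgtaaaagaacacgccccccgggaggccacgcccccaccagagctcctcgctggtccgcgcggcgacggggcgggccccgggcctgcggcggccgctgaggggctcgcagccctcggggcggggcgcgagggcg
Cdk2: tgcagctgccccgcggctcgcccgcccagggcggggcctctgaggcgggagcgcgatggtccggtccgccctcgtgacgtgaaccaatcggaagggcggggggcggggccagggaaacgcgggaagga
Cdk2 match: accaggaactGCGGGAAAgttgtgcagc

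The 5′ untranslated regions, the stretch on which eIF4A acts ahead of the scanning ribosome, were compared by length and GC content in the annotation of the same build. Over 12030 matched entries the median length was 191 bases and the median GC content 64.3%. Cdkn1b had the longest among the members, at 519 bases and 60.9% GC, longer than 90.9% of entries. Ccnd1 had 176 bases at 68.2% GC, Ccnd2 287 at 56.8%, Ccne1 242 at 74.4%, Cdk2 203 at 67.0%, Cdk4 242 at 69.4%, Cdk6 327 at 69.1% and Rb1 181 at 75.7%. Thus 6 of 8 members were above the median length and 6 of 8 above the median GC content.

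Across the 12 polysome libraries, the genes whose log2 CPM followed that of Ccnd1 most closely were Pcsk6 (Pearson r = 0.957), Psph (0.955), Arhgap27 (0.955), Jag2 (0.952) and Ano1 (0.951). Among the members, Ccnd2 had r = 0.82, Ccne1 0.69, Cdk2 0.65, Cdk4 0.51, Rb1 0.35, Cdk6 -0.18 and Cdkn1b -0.19. These values are descriptions without a test, since libraries of one organoid type and one replicate number share their source.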

How the data were processed

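RNA was sequenced as paired reads of 100 bases. The authors aligned reads with HISAT2, discarded reads with several alignments and counted them per RefSeq gene with RPKMforgenes. The deposited raw counts were used for all tests, and the RPKM values deposited by the authors only for levels between genes. The submitters' processing notes name hg38 and GRCh38 although the genes are mouse genes, so no coordinates were taken from the files. All sample columns matched a label.

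Entries with a count above 0 in all 24 libraries were tested with edgeR 4.0.16 (R 4.3.3) by the quasi-likelihood test on TMM-scaled counts, in one model of 4 groups per fraction. Translational efficiency was the fraction-by-group interaction in a model that also held a term for each lysate. Adjustment was by Benjamini-Hochberg, with a threshold of 0.25. CPM used a prior count of 0.5 on the log2 scale. The procedure was run on simulated counts with the same fixed dispersion for every gene and no source shared between libraries. Recovery there was judged at 0.05. That run does not measure how reliable calls at 0.25 are for members with a wider spread. Alternatives were DESeq2 1.42.0, other scalings and filters, only the groups compared, entries of a single symbol, lane and the replicate block. A regression on total mRNA, N replicate 3 left out, a threshold of 0.05 and each replicate left out in turn were also used.

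Replicate numbers pair the samples within an organoid type: the 12 correlations of same-numbered vehicle and CR-31 libraries, as deviations from group means, were 0.45 to 0.89. Summed CPM of 4 Y-linked genes also went by number, at most 0.161 in N replicates 1 and 2 and KP replicate 3 and at least 23.8 in the others. The 12 correlations between KP and N were -0.17 to 0.28, 4 of them over 0.1, so those numbers do not pair. Named were all members, up to 4 called genes per list by smallest adjusted p, and the 5 genes most like Ccnd1. Members and lists were chosen with earlier results of these data known. Columns of the authors' own comparisons were not used. A further allele of the KP mice is not reported here.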

Additional observations from a re-analysis of the deposited data

Results flagged for a closer look

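In 2 of 8 members the polysome change with CR-31 went one way in every N replicate and the other way in every KP replicate, a pattern that 862 of all 12209 entries (7.06%) showed. Ccne1, the gene of cyclin E1, was higher with CR-31 in 3 of 3 N replicates (0.03, 0.12 and 0.57 on the log2 scale) and lower in 3 of 3 KP replicates (-0.09, -0.34 and -0.12). The fitted difference, KP minus N, was -0.39 and did not pass edgeR's quasi-likelihood test (adjusted p = 1). Rb1 was lower with CR-31 in 3 of 3 N replicates (-0.18, -0.06 and -0.78) and higher in 3 of 3 KP replicates (0.24, 0.19 and 0.02). Its fitted difference was 0.51 and did not pass the same test (adjusted p = 1). Without N replicate 3 the differences were -0.26 for Ccne1 and 0.28 for Rb1 (adjusted p = 1 for both). In both genes the N value farthest from 0 is that of replicate 3, whose fraction labels are in doubt.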

How the results depend on the processing

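The 15 counts of members called were recomputed under 158 combinations with other alternatives, 149 of them within 1.5 times the original count. At an adjusted p under 0.05 each of the 4 counts of KP against N was 2. For efficiency in vehicle KP against N, the count of 0 became 1 with the regression on total mRNA, where 1320 of 12209 entries were called. It became 3 without N replicate 3, where 35.3% of 12372 entries were called. For CR-31 the replicate block without N replicate 3 gave 2 members in KP polysome-associated mRNA, 1 in N and 1 for their difference, and the block changed no other count of members. With replicates left out in turn, counts ranged from 0 to 2 for efficiency in vehicle KP against N (2 without N vehicle replicate 3), from 0 to 2 for the difference in efficiency (2 without N CR-31 replicate 2) and from 2 to 5 for polysome-associated mRNA in CR-31 KP against N (2 without N CR-31 replicate 2 or without KP CR-31 replicate 1). Among polysome and total values of KP against N, those that changed sign were not called in the report, although Cdkn1b in vehicle polysome-associated mRNA was called lower with upper-quartile scaling, without N vehicle replicate 1 and without N vehicle replicate 2. With upper-quartile scaling Ccne2+Ints8 became -0.0454 and Rb1 -0.0145 in vehicle polysome-associated mRNA, and Cdk4 -0.0195 in vehicle total mRNA. Without N replicate 3 Cdkn1b became 0.10 in vehicle polysome-associated mRNA, Cdk4 -0.0076 in vehicle total mRNA and Rb1 0.0173 in CR-31 total mRNA. With replicates left out, vehicle polysome values ranged from -0.14 to 0.16 for Ccne2+Ints8, -0.14 to 0.15 for Rb1 and -0.75 to 0.0554 for Cdkn1b, vehicle total values from -0.53 to 0.10 for Cdk6 and -0.0316 to 0.0484 for Cdk4, and the CR-31 total value of Rb1 from -0.60 to 0.0521. The causes were not tested. No paired analysis of KP against N was possible because their replicate numbers do not pair. Groups of 3 limit the precision of every value.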
